A study of Mus musculus with 10 samples.

Results

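VSG22, a glucocorticoid known here only by its code name, was compared with its solvent, labelled EtoH, in RAW264.7 cells, a mouse line that behaves like a macrophage. The comparison takes every non-control probe on the 2 VSG22 arrays and the 2 EtoH arrays, which are 4 of the 10 single-colour Agilent arrays of the study. The other 6 arrays, 2 each for dexamethasone (Dex), fluticasone furoate (FF) and VSGC12, served to estimate the spread and for a direct comparison at the same dose and time. Each glucocorticoid was added at 100 nM, and 1 hour later came 1 µg/ml of LPS (lipopolysaccharide, from the outer membrane of bacteria, a strong stimulus of macrophages). Cells were collected for RNA at 16 hours. The labels do not say whether EtoH cells also received LPS, so a difference from EtoH is a difference from cells without glucocorticoid whose stimulation is not stated. All groups are the same cell line with no stated gene alteration. The labels do not say whether the 2 replicates of a group were separate cultures, so p-values measure only the spread between these arrays.

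Glucocorticoids enter the cell and bind the glucocorticoid receptor (Nr3c1), a transcription factor held in readiness by the Hsp90 chaperone system. The bound receptor moves to the nucleus, where it raises some genes through response elements in DNA and lowers others, many of them inflammatory genes driven by NF-kB, AP-1 and interferon regulatory factors. In macrophages the class is known for lowering cytokines and for raising genes such as Fkbp5 and Tsc22d3, while LPS drives cytokine and interferon-response genes and slows division.

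Levels are log2 values relative to each array's own 75th percentile, so 0 is that percentile and a step of 1 is a doubling. That percentile was a signal of 375.1 and 434.6 on the EtoH arrays and 437.6 and 449.9 on the VSG22 arrays. Over the 10 arrays between 40.1% and 44.4% of spots were well above background, and no spot was saturated. The replicate pair correlated across probes at 0.995 in EtoH and 0.995 in VSG22, and their differences had an SD of 0.326 and 0.331 (log2). Each group lay at the same position on both slides, so position and group cannot be told apart. Of the macrophage identity genes, 25 of the 27 listed, among them Cd68, Csf1r, Itgam and Spi1, passed the filter on dim probes. Of the markers of other cells, 0 of 8 for B cells, 4 of 12 for T cells, 4 of 13 for neutrophils and mast cells, 3 of 10 for fibroblasts and 1 of 8 for epithelial cells passed. The summed level of the T cell markers (Cd3e, Cd4, Lck and Il7r), in multiples of the 75th percentile, was 37.1 and 37.9 in EtoH and 49.2 and 45.7 in VSG22. For neutrophil and mast cell markers it was 47.1 and 58.9 against 58.4 and 69.7, for fibroblast markers 1.21 and 1.31 against 1.86 and 1.72, and for the epithelial marker Krt5 0.0862 and 0.209 against 0.0592 and 0.0931. Such sums follow their brightest members. In the test given below, 0 of the 4 T cell markers were called higher and Il7r was called lower, with a median difference of -0.11 (log2). The part of these markers in the results was not tested.

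A large share of the genes differed between VSG22 and EtoH, in both directions. Of 18049 genes tested, 5448 (30.2%) differed from EtoH in limma's moderated test at a Benjamini-Hochberg adjusted p under 0.05, and these are the genes called higher or lower here. They split into 2738 higher (15.2%) and 2710 lower (15%). Those shares are the background for every count of list members given below. The median size of a called difference was 0.64 (log2). Differences of at least 2-fold were found in 710 genes higher and 597 lower, of at least 4-fold in 201 and 119, and of at least 8-fold in 79 and 33. On 0 of the called genes did the VSG22 arrays overlap the EtoH arrays, and over all genes tested 13027 did not overlap. Leaving out 1 of the 4 arrays leaves a group with 1 array. The test is then weaker by design, and fewer genes were called whichever of the 4 was left out. Counts and lost calls given below without 1 of the 4 arrays carry the same limit. Subtracting each array's median in place of its 75th percentile moved the median of all genes by 0.14 (log2), left 1789 genes called and turned the split from 50.3% to 68.2% higher, so differences under about that size have a direction only relative to the scaling.

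**Figure D1:**
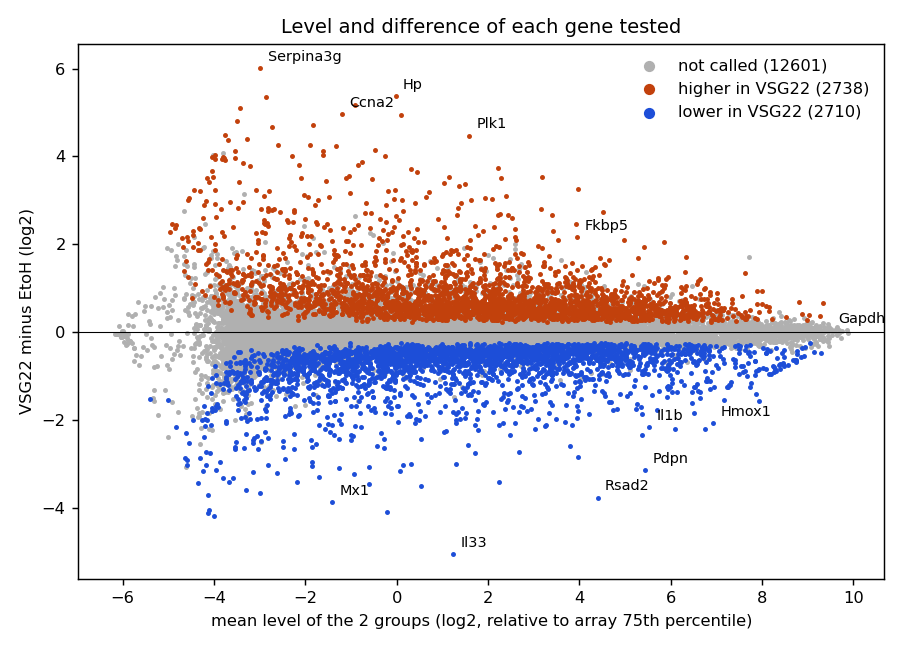
Each point is 1 of the 18049 genes tested, with its mean level over the VSG22 and EtoH groups on the x axis (log2, relative to the array 75th percentile) and VSG22 minus EtoH on the y axis (log2). Orange points are the 2738 genes called higher, blue points the 2710 called lower and grey points the rest. Hp, Ccna2 and Plk1 stand high, Il33, Mx1 and Rsad2 low, and Gapdh lies at 0.04.

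Among genes well above background on all 4 arrays, Hp rose furthest. Hp encodes haptoglobin, the acute-phase plasma protein that binds free haemoglobin. Its level was -2.73 and -2.68 in EtoH and 2.77 and 2.56 in VSG22, a difference of 5.37 ± 0.10 (log2, SE of the fit; limma adjusted p 3.41e-06), or 41.3-fold (probe at chr8:112099045-112099104 of mm9). The EtoH arrays were at the low end and the VSG22 arrays at the high end with no overlap. The other 11 highest were led by Ccna2 (cyclin A2, needed for S phase and entry into mitosis), which went from -3.86 and -3.51 to 1.40 and 1.18, a difference of 4.97 ± 0.19. Plk1, the mitotic polo-like kinase, went from -0.38 and -0.90 to 3.95 and 3.71, a difference of 4.47 ± 0.18. Next came E2f7 (4.27), a repressor of the E2F family, although its 2 measured probes differed, at 4.27 and -1.05. Exo1 (4.16), Rad54l (3.88) and Rad51ap1 (3.72), 3 factors of DNA end resection and recombination, and Tk1 (3.73), which makes thymidine phosphate, were also among them. Steap1 (4.03) belongs to a family of metalloreductases, and Sapcd2 (4.0), Shcbp1 (3.65) and Pimreg (3.56) completed the set.

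The gene furthest below EtoH was Il33, which encodes an alarmin cytokine of the interleukin-1 family. Its level was 3.73 and 3.80 in EtoH and -1.24 and -1.35 in VSG22, a fall of 5.06 ± 0.27 (33.3-fold, limma adjusted p 5.25e-05; probe at chr19:30035101-30035160 of mm9). Both VSG22 arrays were far below both EtoH arrays. Interferon-induced genes took 5 of the 12 lowest places: Mx1 (-3.87), Rsad2 (-3.76), Ifit2 (-3.50), Cmpk2 (-3.41) and Ifit3b (-3.01). The remaining 6 were Clu (clusterin, an extracellular chaperone, -3.46), Tent5c (a cytoplasmic poly(A) polymerase, -3.15), Pdpn (podoplanin, -3.13), Mylk2 (a myosin light chain kinase, -3.09), Pakap (-3.06) and Plpp3 (a lipid phosphatase, -3.04). Pdpn is a membrane glycoprotein of activated macrophages and lymphatic endothelium, and it went from 7.08 and 6.93 to 3.97 and 3.78. With normexp background correction several dim genes moved by over 1.5-fold, for example Hp to 4.26, Ccna2 to 3.37, Mx1 to -2.66 and Clu to -2.67, and each kept its call.

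**Figure D2:**
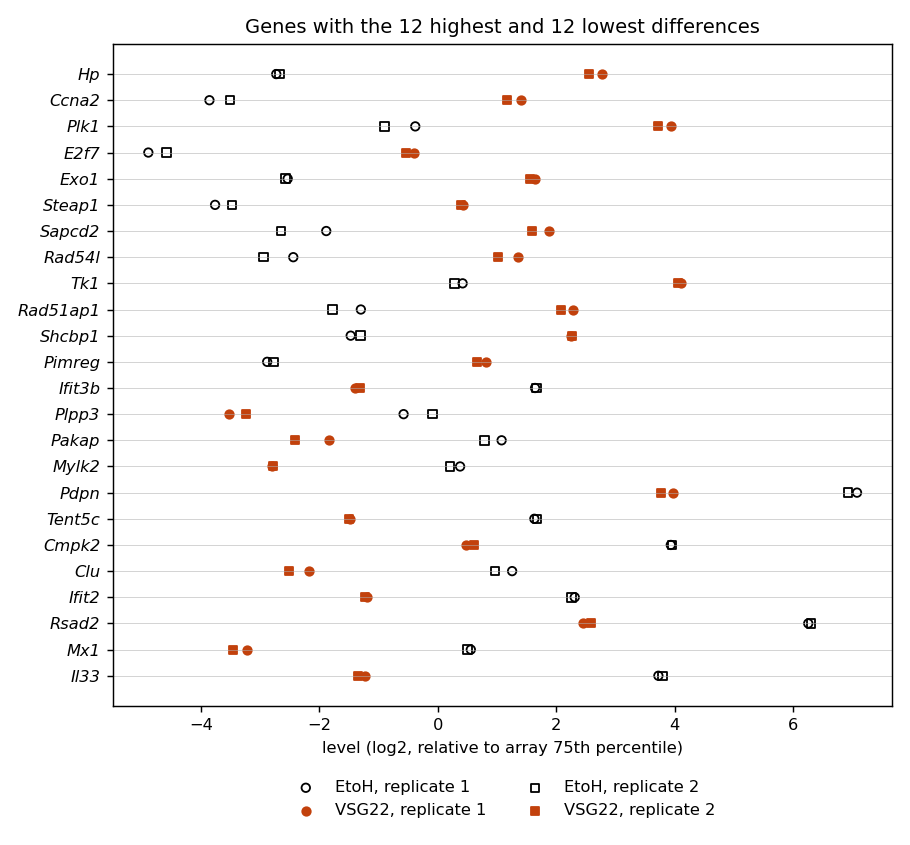
Levels of the 12 genes with the highest and the 12 with the lowest difference, 1 gene a row (x axis, log2 relative to the array 75th percentile). Black open symbols are the 2 EtoH arrays and orange filled symbols the 2 VSG22 arrays, with circles for replicate 1 and squares for replicate 2, and in no row do the groups overlap.

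Some genes were well above background in 1 group and on neither array of the other, and for these only a bound can be given, from the bright group's mean to the lowest signal counted as well above background. Serpina3g, a serine protease inhibitor of activated leukocytes, was below background in EtoH (-6.21 and -5.77) and at 0.14 and -0.11 in VSG22, at least 14.3-fold higher (limma adjusted p 7.29e-06). Depdc1b was at least 11.6-fold higher, and the predicted genes Gm12387 and Gm9430 at least 12.5-fold and 11-fold. In the other direction Mmp13, a collagenase, was at -1.08 and -0.94 in EtoH and -4.22 and -4.20 in VSG22, at least 7.25-fold lower. Osbp2 was at least 6.86-fold lower, Dusp13 at least 6.58-fold and Rhov at least 4.97-fold. In all, 145 called genes were below background in EtoH and 101 in VSG22.

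The receptor itself showed no called change, and genes known as direct targets moved both ways. Nr3c1 was at 3.14 and 3.12 in EtoH and 3.04 and 2.97 in VSG22, a difference of -0.12 ± 0.09 (limma adjusted p 0.371); with the mean of its probes it was -0.38 (adjusted p 0.0219), a call. Of 30 listed receptor targets that were measured, 5 rose (16.7%) and 6 fell (20%), against 15.2% and 15% of all genes tested, with a median of 0.03 against -0.03. Fkbp5, the co-chaperone that dampens receptor signalling and a standard marker of receptor activity, was highest of these. It went from 2.92 and 2.80 to 5.16 and 4.92, a difference of 2.17 ± 0.13 (4.51-fold, limma adjusted p 8.01e-05). Angptl4, an inhibitor of lipoprotein lipase, rose by 1.32, Lcn2 (lipocalin-2) by 0.69, Sgk1 (a serum- and glucocorticoid-regulated kinase) by 0.52 and Mt1 (metallothionein) by 0.42. Several targets known from other cells were not called: Tsc22d3 (GILZ) differed by 0.03 (adjusted p 0.846), Dusp1, a MAP kinase phosphatase, by -0.04 (0.872), Per1 by -0.39 (0.0943; called in 5 of 23 settings, at adjusted p down to 0.0374) and Zbtb16 by 0.04 (0.967). Genes named beyond the stated rule, here and below, were picked as examples after their values were seen. The signs of Tsc22d3, Dusp1, Zbtb16 and Nr3c1 turned with the scaling or background setting.

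The listed targets that fell numbered 6. Rgs2, which shuts off G protein signals, went from 5.21 and 4.98 to 2.59 and 2.44, a fall of 2.58 ± 0.13. Ddit4 (REDD1, an inhibitor of mTOR) fell by 1.70 and Gadd45b by 1.24, while Bcl6, Klf4 and Cdkn1a fell by 0.62, 0.61 and 0.54. The count of risen targets was 3 without EtoH replicate 1 or without VSG22 replicate 2, and under array-median scaling 2 rose and 3 fell. Among 22 chaperones and cofactors of the receptor 6 rose and 1 fell (median 0.16). Ppid and Fkbp4, like Fkbp5 co-chaperones of the Hsp90 complex, rose by 1.12 and 0.94, and Hsp90aa1, the inducible Hsp90, fell by 1.10. That count of 6 was 3 without VSG22 replicate 2 and 3 under array-median scaling.

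Secreted cytokines were the inflammatory group with the largest share lowered. Of 27 measured, 20 fell, 0 rose, and the median was -0.74. Apart from Il33, Ifnb1 (interferon beta) was at -2.25 and -2.02 in EtoH and below background in VSG22, at least 3.33-fold lower, and Inhba (an activin subunit) at least 1.59-fold lower. Il1b, the main secreted interleukin-1, went from 6.67 and 6.54 to 4.53 and 4.38, a fall of 2.15 ± 0.11 (4.45-fold, limma adjusted p 4.15e-05). Il19, Il15, Lif, Il1rn and Il1a fell by 1.87, 1.72, 1.59, 1.44 and 1.38, so the interleukin-1 antagonist (Il1rn) fell beside both agonists. The cytokines most often read as markers of LPS activation moved less. Il6 went from 6.14 and 6.24 to 5.47 and 5.59, a fall of 0.66 ± 0.10 (adjusted p 0.00419). Tnf went from 7.30 and 7.38 to 6.76 and 6.84, a fall of 0.54 ± 0.11 (limma adjusted p 0.0099). Its probe lay in a patch on a VSG22 or EtoH array. A patch is a place where at least 3 of the 24 neighbouring spots were well above background on that array and no other. Il10, an anti-inflammatory cytokine, fell by 0.82 ± 0.08. Il23a differed by 1.07, was below background in EtoH and did not pass the test. The count of 20 was 12 without VSG22 replicate 1, and 10 under array-median scaling, where Tnf, Il6 and Il10 lost their call, as did Tnf without EtoH replicate 2 and without VSG22 replicate 1.

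Of 15 chemokines, 7 fell and 0 rose (median -0.44). Ccl12 and Ccl7, both attractants of monocytes, fell furthest: Ccl12 went from 1.77 and 1.83 to -1.33 and -1.05 (a fall of 2.99 ± 0.19) and Ccl7 from 7.89 and 7.84 to 5.65 and 5.66 (2.21 ± 0.12). Ccl5 fell by 1.41, Cxcl10 by 0.85, Cxcl3 by 0.50, Ccl2 by 0.47 and Cxcl2 by 0.44. Ccl3 and Ccl4 were not called, at 0.12 and -0.36. The count of 7 was 4 without EtoH replicate 1, without VSG22 replicate 1 or without VSG22 replicate 2, and 3 under array-median scaling.

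Interferon-induced genes split by size. Among 42 antiviral genes measured, 21 fell and 2 rose (Ifi44l by 0.55 and Ifitm3 by 0.50), and the median was -0.32. Rsad2 (viperin, a radical enzyme that makes a chain-terminating nucleotide) went from 6.26 and 6.30 to 2.45 and 2.58, a fall of 3.76 ± 0.10 (13.6-fold, limma adjusted p 6.79e-06). Mx1, a dynamin-like GTPase that blocks viral replication, went from 0.56 and 0.50 to -3.23 and -3.46. Ifit2, which binds viral RNA, went from 2.31 and 2.26 to -1.19 and -1.23. Others of the same list lay close to EtoH: Oas1a differed by -0.04, Ifi35 by -0.01, Eif2ak2 (PKR) by 0.03, Ddx58 (RIG-I) by 0.14 and Isg15 by -0.47, of which only Isg15 was called. Of 15 guanylate-binding proteins and immunity-related GTPases, which attack vacuoles holding pathogens, 6 fell and 0 rose. Gbp2 fell by 2.36, Gbp5 by 2.34, Gbp3 by 1.79 and Tgtp2 by 1.47, whereas Irgm1 (-0.13), Irgm2 (-0.10) and Igtp (-0.17) were not called. Under array-median scaling 10 antiviral genes fell, and neither riser was called there or without any 1 of the 4 arrays.

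The interferon-stimulated response element (ISRE) core, searched as GAAANNGAAA on both strands, marks promoters bound by interferon regulatory factors. RefSeq promoter windows (GRCm38.p6, 250 bases before to 50 after a start) matched 9907 of the tested genes by symbol. The core was in the windows of 3.95% of those genes and in 3.44% of all 32851 windows, against 17 of 32 antiviral genes and 8 of 8 guanylate-binding and immunity-related GTPases. Of the antiviral genes 9 of 17 with the core were called, at a median of -0.27, and 9 of 15 without it, at a median of -0.49. It was in 24 of 325 genes lower by 2-fold or more and 24 of 456 higher by 2-fold or more. Rsad2 is printed because it is the antiviral gene with the largest fall among those named here that hold the core; its window is chr12:26456403-26456702 on the minus strand, and the capitals mark the match, which reads on the opposite strand and begins at position -120 from the start.
Rsad2: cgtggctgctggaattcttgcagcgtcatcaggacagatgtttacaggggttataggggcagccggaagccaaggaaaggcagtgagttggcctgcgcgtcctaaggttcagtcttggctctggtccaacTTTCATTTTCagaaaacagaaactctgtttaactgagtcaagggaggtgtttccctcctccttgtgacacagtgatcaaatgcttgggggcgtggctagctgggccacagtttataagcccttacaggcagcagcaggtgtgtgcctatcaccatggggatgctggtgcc

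Inflammatory enzymes and effectors moved both ways, with 10 of 30 higher and 10 lower (33.3% each, against 15.2% and 15% of all genes tested). Nos2, which makes nitric oxide, went from 7.21 and 7.33 to 5.66 and 5.65, a fall of 1.61 ± 0.09 (3.06-fold, limma adjusted p 5.25e-05). Its probe lay in a patch on a VSG22 or EtoH array. Ptgs2 (cyclooxygenase-2) went from 8.31 and 8.40 to 7.02 and 7.21, a fall of 1.24 ± 0.13. Timp1, an inhibitor of matrix proteases, fell by 2.57, Cfb (complement factor B) by 1.75, Serpinb2 by 1.45 and Plau (urokinase) by 1.24. Among the genes that rose were Edn1 (endothelin-1, 1.92), Alox5 (5-lipoxygenase, which makes leukotrienes, 1.3), F3 (tissue factor, 1.18), Mmp9 (0.85), Alox5ap (0.81) and the arginine transporter Slc7a2 (at least 3.55-fold). Acod1, which makes itaconate, was at 0.02 and was not called.

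Among acute-phase and complement genes the larger number rose. Of 16 measured, 9 rose and 3 fell, and the median was 0.62; with no filter on dim probes 8 of 23 were higher and the median was -0.05, and with array medians 6 of 16 were higher. After Serpina3g and Hp came Serpina3f, below background in EtoH and at least 3.59-fold higher, and Cp (ceruloplasmin, a copper ferroxidase), which went from 2.42 and 2.29 to 5.74 and 5.48, a rise of 3.25 ± 0.11 (9.54-fold). Serpina3f and Serpina3g are neighbouring, closely related genes whose probes may share signal. C5ar1 rose by 0.73, Saa3 by 0.67 and Saa1 by 0.57, while Clu, Cfb and C3ar1 fell.

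Regulators of the inflammatory pathways changed by smaller amounts. Over all genes tested 15.2% were called higher and 15% lower, against 23.8% and 19% in the Toll-like receptor list and 11.1% and 40.7% in the NF-kB list. In the NF-kB pathway 11 of 27 fell and 3 rose (median -0.12), none by 2-fold: Traf1 fell by 0.84, Ripk2 by 0.66 and Traf6 by 0.63, Nfkb1 rose by 0.67 and Tnfaip3 (A20) by 0.55, and Nfkbia, the inhibitor IkB-alpha and a known receptor target, was at 0.05. Without one of the 4 arrays between 5 and 6 of those 11 were called (6 without either EtoH array, 5 without either VSG22 array), and under array-median scaling 0 were, while of the 3 that rose 1 was called without EtoH replicate 1, without VSG22 replicate 2 and under array-median scaling. Of 21 genes of Toll-like receptor signalling 5 rose and 4 fell: Irak3 (IRAK-M, a brake on the pathway) rose by 1.01 and Tlr2 by 0.81, and Tlr4, the LPS receptor, was at -0.07; the 4 that fell were 2 without EtoH replicate 2 or VSG22 replicate 1 and 1 without VSG22 replicate 2, and under array-median scaling 3 were higher and 0 lower. Among AP-1 and early growth response factors 13 of 22 fell and 4 rose (median -0.54). Myc fell by 1.90, Atf3 by 1.84, Ier3 by 1.47 and Jun by 0.94, against rises of 1.59 for Batf3 and 1.47 for Egr1. Of 18 MAP kinase phosphatases and mRNA-decay factors 6 fell, namely Dusp14 (2.23), Dusp10 (2.16), Dusp8 (1.47), Dusp4 (1.46), Dusp5 (1.37) and Dusp16 (0.29), and Dusp2 alone rose (1.09). The probe of Dusp14 lay in a patch on a VSG22 or EtoH array. In JAK-STAT feedback 22 of 26 were not called, and Socs1 and Socs3 were at 0.19 and -0.01. Array-median scaling left 5 of the 13 AP-1 genes lower.

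Genes of cell division rose together. Of 39 mitosis genes measured, 38 rose and 0 fell, 35 by 2-fold or more, and the median was 2.29. In a bulk sample a larger share of dividing cells and more of each RNA per cell cannot be told apart. Pbk, a mitotic kinase, went from -2.94 and -4.05 to 1.74 and 1.63, a rise of 5.18 ± 0.32. Pbk and Aspm were well above background on 1 of the 2 EtoH arrays, so the size of their rise is uncertain. Kif2c and Kif11, spindle motors, were below background in EtoH and at least 5.06-fold and 4.04-fold higher. Aspm (a spindle pole protein) rose by 4.26, Birc5 (survivin) by 3.53, Cdk1 by 2.35 and Ccnb1 (cyclin B1) by 2.29. Mki67, the proliferation marker Ki-67, went from 1.03 and 1.27 to 3.06 and 3.04, a rise of 1.90 ± 0.10 (3.73-fold, adjusted p 5.49e-05). Cdc25b, at 0.93, was the one member not called.

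DNA replication genes rose in 33 of 38 cases and fell in 2, with a median of 1.52. Tk1 went from 0.42 and 0.28 to 4.12 and 4.05, a rise of 3.73 ± 0.09 (13.3-fold), and Rrm2, a subunit of ribonucleotide reductase, from 0.63 and 0.45 to 4.16 and 3.93. Cdc6 (well above background on 1 EtoH array) and Mcm10, which load and start the replicative helicase, rose by 3.44 and 3.34, the helicase subunits Mcm2 to Mcm7 by 1.23 to 2.74, and Pcna, the polymerase clamp, by 0.78. The 2 that fell, singled out after their values were seen, were Tyms (thymidylate synthase, by 1.40, adjusted p 0.0478) and Cdt1 (a licensing factor, by 0.45, adjusted p 0.0248), and 0 of the 2 were called without any 1 of the 4 arrays. DNA repair genes rose in 22 of 33 cases and Ung, which removes uracil, fell by 0.73, with a median of 1.00. Fancd2 and Fanci, partners in the repair of crosslinks, both rose (Fancd2 was below background in EtoH, so at least 3.49-fold; Fanci, well above background on 1 EtoH array, by 4.12), and Brca2 rose by 2.07.

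Among 28 cyclins, kinases and their inhibitors 12 rose and 8 fell (42.9% and 28.6%, against 15.2% and 15% of all genes tested). Besides the repressor E2f7, E2f8 rose by 3.16 and Mybl2 (B-Myb, which activates mitotic genes) by 3.01, while Ccnd1, Ccnd2 and Ccnd3 rose by 0.68, 0.98 and 0.74. Those that fell were Ccng2 by 1.46, Mdm2 by 1.10, Trp53inp1 by 0.80, Cdkn1b (p27) by 0.78, Cdkn2d by 0.61, Cdkn1a (p21) by 0.54, Btg2 by 0.53 and Btg1 by 0.39. The 8 were 5 without VSG22 replicate 2 and 2 under array-median scaling.

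The cell cycle homology region (CHR) core TTTGAA, searched on both strands, is an element of promoters active late in the cycle. It was in 15% of the tested genes with a window and, counted by window, in 17.9% of all windows, against 22 of 30 mitosis genes with a window. Of the mitosis genes all 22 with the core were called, at a median of 2.27, and 7 of 8 without it, at a median of 2.04. It was in 28.5% of the genes higher by 2-fold or more and 15.7% of those lower. The E2F core TTTNGCGC was in 2.79% of tested genes (1.38% of all windows), 11 of 32 DNA replication genes, 6.36% of those higher by 2-fold or more and 0.923% of those lower. The CCAAT box was in 43% of tested genes (37.4% of all windows), 57% of those higher by 2-fold or more and 38.1% of those lower. The glucocorticoid response element, searched as AGAACANNNTGTNCT, was in 2 of the tested genes with a window (0.0202%, and 0.0396% of all windows). Of these 2 genes 1 is a listed target. The kappa B motif was in 6.14% of tested genes (4.51% of all windows) and 6 of 18 secreted cytokines. It was in 7.02% of the genes higher by 2-fold or more and 5.85% of those lower. None of these motifs contains another, though matches in a window may overlap. A match is a description of letters, and its absence from a window of 300 bases says nothing of the factor. Among the mitosis genes taken by the naming rule, Plk1, Aspm and Mki67 hold the CHR core with the largest rise and are printed, with the core in capitals; Kif2c and Kif11, named above as examples, also hold it. It begins at position 31 after the start in Plk1 (chr7:122159185-122159484, plus strand), at 7 in Aspm (chr1:139454523-139454822, plus strand), and at -116 and -98 in Mki67 (chr7:135716330-135716629, minus strand).
Plk1: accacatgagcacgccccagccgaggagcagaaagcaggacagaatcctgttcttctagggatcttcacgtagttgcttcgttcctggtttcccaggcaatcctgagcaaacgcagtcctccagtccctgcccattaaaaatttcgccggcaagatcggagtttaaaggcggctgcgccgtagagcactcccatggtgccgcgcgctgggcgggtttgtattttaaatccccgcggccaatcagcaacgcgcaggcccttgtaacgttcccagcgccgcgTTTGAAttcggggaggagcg
Aspm: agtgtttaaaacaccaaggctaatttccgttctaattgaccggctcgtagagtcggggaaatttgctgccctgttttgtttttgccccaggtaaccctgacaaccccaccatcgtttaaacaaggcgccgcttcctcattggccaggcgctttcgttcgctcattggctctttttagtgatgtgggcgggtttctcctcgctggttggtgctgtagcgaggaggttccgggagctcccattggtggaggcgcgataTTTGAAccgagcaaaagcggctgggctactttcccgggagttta
Mki67: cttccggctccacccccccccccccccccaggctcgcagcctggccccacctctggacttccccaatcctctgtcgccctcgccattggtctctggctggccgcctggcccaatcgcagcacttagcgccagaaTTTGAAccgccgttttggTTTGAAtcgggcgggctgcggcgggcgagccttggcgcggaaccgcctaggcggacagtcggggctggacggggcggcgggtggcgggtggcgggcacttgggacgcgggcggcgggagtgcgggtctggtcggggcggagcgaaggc

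**Figure D3:**
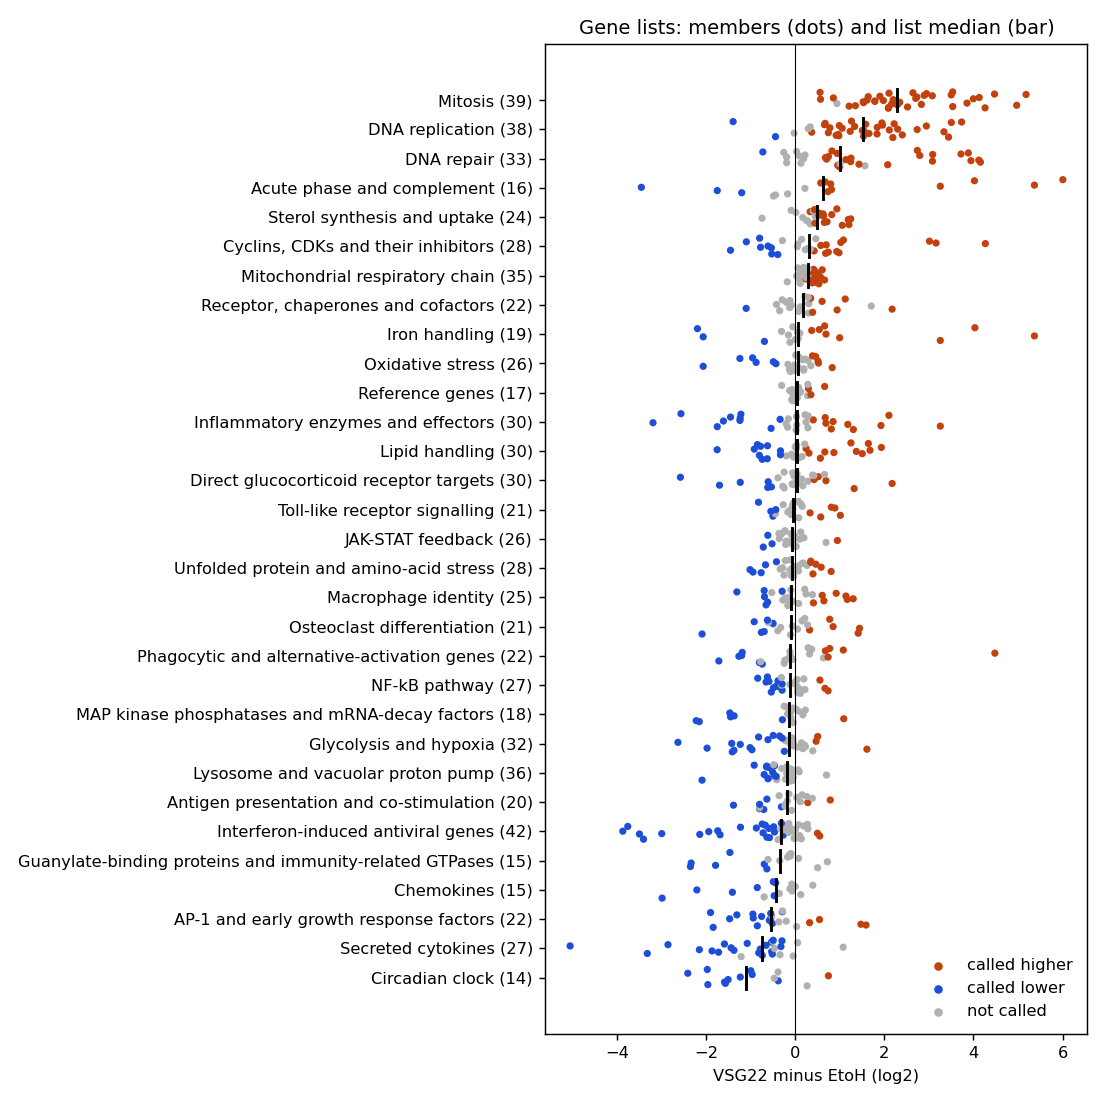
Each dot is a measured gene of a list, at its VSG22 minus EtoH difference (x axis, log2), with the number measured in parentheses; orange dots were called higher, blue lower and grey neither, and the black bar is the list median. Lists with 14 or more measured genes are shown in the order of their medians, from mitosis at 2.29 and DNA replication at 1.52 down to secreted cytokines at -0.74 and the circadian clock at -1.12.

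The circadian clock list had the lowest median, -1.12, with 10 of 14 genes lower and 1 higher. Tef, an output transcription factor of the clock, went from 2.74 and 2.75 to 0.85 and 0.68, a fall of 1.98 ± 0.10 (adjusted p 3.7e-05). Bhlhe40, a repressor, fell by 1.96, Ciart by 1.59, Cry1 by 1.51 and Dbp by 1.24. Nr1d2 (REV-ERB beta) fell by 2.41 ± 0.48, but its probe lay in a patch on a VSG22 or EtoH array. Its call was lost without EtoH replicate 2, without VSG22 replicate 1 and without VSG22 replicate 2. Nfil3, which opposes Dbp and Tef at the same sites, rose by 0.74. Arntl (BMAL1) was at 0.26 and Per1 at -0.39, and neither was called.

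Sterol synthesis rose in 15 of 24 genes and fell in 0 (median 0.49). Idi1 went from 2.24 and 2.12 to 3.48 and 3.37, a rise of 1.24 ± 0.11, and Hsd17b7 and Cyp51, which act late in the path to cholesterol, rose by 1.19 and 1.05. The count of 15 was 9 without EtoH replicate 2 or without VSG22 replicate 1, and 6 under array-median scaling. Of 30 genes of lipid handling 11 rose and 10 fell (36.7% and 33.3%, against 15.2% and 15% of all genes tested). Among those higher were Lpl (lipoprotein lipase, 1.93), the desaturases Scd1 (1.64) and Scd2 (1.25) and Dgat2 (which makes triglyceride, 1.5), and among those lower the droplet proteins Hilpda (-1.76) and Plin2 (-0.78) and the cholesterol exporter Abca1 (-0.74). Without VSG22 replicate 2 the 11 were 7, and under array-median scaling 7 were higher and 1 lower.

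Glycolysis and hypoxia genes fell in 14 of 32 cases and rose in 3 (median -0.15). P4ha2, a collagen prolyl hydroxylase, fell by 2.63 and Eno2 (an enolase) went from 4.51 and 4.46 to 2.50 and 2.51, a fall of 1.98 ± 0.08. Ndrg1 fell by 1.43 and the glucose transporter Slc2a1 by 0.82, whereas Ldha (-0.12) and Pgk1 (-0.06) were not called. Array-median scaling left 6 lower. Respiratory chain genes rose in 19 of 35 cases and fell in 0, by at most 0.66 (Cox7a2) with a median of 0.29, but that count was 9 without EtoH replicate 1, 6 without EtoH replicate 2, 6 without VSG22 replicate 1, 8 without VSG22 replicate 2 and 0 under array-median scaling.

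Genes of iron handling, oxidative stress and the lysosome changed in part. Over all genes tested 15.2% were called higher and 15% lower. Oxidative stress stood at 19.2% and 23.1%, and unfolded protein and amino-acid stress at 21.4% and 17.9%. Of 19 iron handling genes 8 rose and 3 fell, and under array-median scaling 4 and 2 did. Hmox1 (haem oxygenase-1) went from 8.02 and 7.93 to 5.91 and 5.90, a fall of 2.07 ± 0.07 (4.19-fold, adjusted p 1.21e-05), and Slc40a1, the iron exporter ferroportin, fell by 2.20, while Tfrc (transferrin receptor) rose by 0.66. Sqstm1 (p62), Srxn1 and Prdx1, stress genes like Hmox1, fell by 1.24, 0.96 and 0.88, and Gsr (glutathione reductase) rose by 0.83. Of 26 oxidative stress genes 5 rose and 6 fell; with array medians 1 and 2 did, and Srxn1 and Prdx1 were no longer called, and the 5 were 1 without EtoH replicate 1, 0 without VSG22 replicate 1 and 3 without VSG22 replicate 2. Of 36 lysosomal and proton pump genes 12 fell and 0 rose (6 without VSG22 replicate 1, 1 under array-median scaling). Atp6v0d2, a pump subunit of osteoclasts and macrophages, fell by 2.09 and Ctsk (cathepsin K) by 0.70. In the unfolded protein and amino-acid stress list 6 rose and 5 fell of 28, with 0 called under array-median scaling and at most 2 higher without any 1 of the 4 arrays.

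Surface genes of the macrophage moved in both directions. Over all genes tested 15.2% were called higher and 15% lower. The shares were 28% and 24% among macrophage identity genes and 23.8% and 28.6% among osteoclast genes. Of 25 identity genes 7 rose and 6 fell: Cx3cr1 rose by 1.3, Csf1r (the receptor for CSF-1) by 1.17, Itgam (CD11b) by 1.14 and Lyz2 by 0.92, and Irf8 fell by 0.69. Mertk, a receptor for the uptake of dying cells and a known glucocorticoid-induced gene, was below background in EtoH (-6.13 and -5.88) and at -1.36 and -1.69 in VSG22, at least 4.90-fold higher (limma adjusted p 2.24e-05). Its ligand Gas6 fell by 1.27 and its other ligand Pros1 rose by 0.68. Clec7a (dectin-1) fell by 1.72 and Mrc1 (CD206) at least 1.70-fold, and the co-stimulatory genes Cd83, Cd40 and Cd86 fell by 1.39, 0.80 and 0.80. The probe of Mrc1 lay in a patch on a VSG22 or EtoH array. Its call was lost with normexp and without VSG22 replicate 2. Under array-median scaling Cd40 and Cd86 lost theirs. Without EtoH replicate 1 or without VSG22 replicate 2, 2 of the 6 identity genes were lower, and under array-median scaling 4 were higher and 1 lower. Among 21 osteoclast genes 5 rose and 6 fell (3 higher without EtoH replicate 2 or either VSG22 array, 1 lower under array-median scaling). Of the markers of other cells, Il7r (the interleukin-7 receptor) fell by 1.58 and Tpsb2 and Acta2 rose by 0.38 and 0.53. Reference genes differed little, with Gapdh at 0.04 and Actb at -0.06, though Tfrc, Hprt (0.35) and Sdha (0.29) were called higher, with 1 of these 3 called without EtoH replicate 2 or VSG22 replicate 1 and 0 without the other 2 arrays or under array-median scaling. The calls of Tpsb2 and Acta2 were lost without VSG22 replicate 1 or replicate 2, and the probe of Acta2 lay in a patch on a VSG22 or EtoH array.

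Set against the other glucocorticoids at the same dose and time, VSG22 differed in few genes. The compounds were compared in 3 pairs, and each test was adjusted over all genes. In limma, against VSGC12 0 of 18044 genes were called (0%; 1243 at an unadjusted p under 0.05), against FF 0 of 18032 (0%; 1691), and against Dex 95 of 18044 (0.526%; 3072), 35 higher and 60 lower. A missed call does not show that the compounds act alike, so the intervals are given: the 95% confidence interval of the difference lay within 2-fold for 83.4% of genes against VSGC12, 83% against FF and 80.2% against Dex. Among genes called against EtoH those shares were 95.6%, 95% and 91.8%. Differences of 2-fold or more were measured in 9.01% of genes against EtoH, 5.3% against Dex, 3.46% against FF and 1.97% against VSGC12. The Dex replicates themselves differed most, with an SD of 0.631 between them against 0.408 in VSGC12 and 0.373 in FF, and 3.29% and 4.89% of their spots lay in patches; the part of this in the Dex share was not tested. Since the 3 comparisons share the VSG22 arrays, they are given side by side and not counted against each other.

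**Figure D4:**
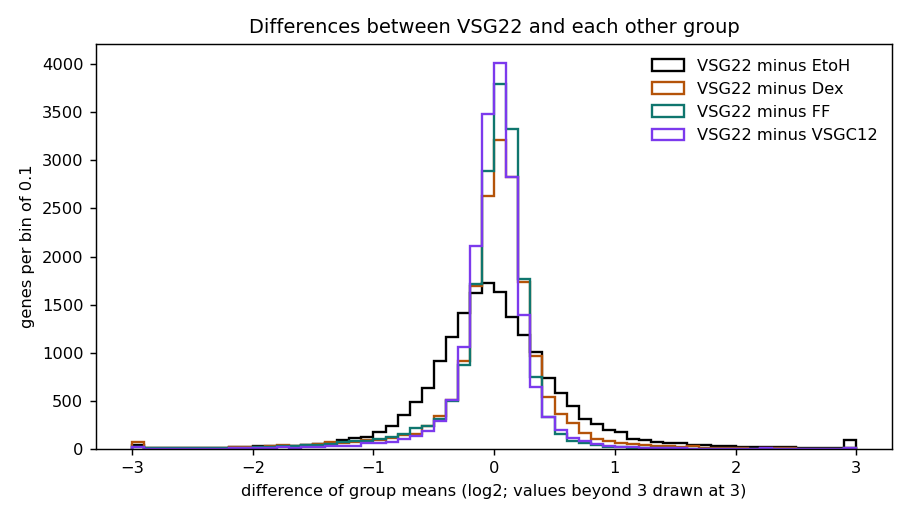
Histograms over the genes tested of the difference between VSG22 and each other group (x axis, log2, values beyond 3 drawn at 3; y axis, genes per bin). The SD of the differences was 0.665 against EtoH, 0.512 against Dex, 0.405 against FF and 0.333 against VSGC12.

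The Dex contrast carried most of what was called. Of the 95 genes, 30 (31.6%) had a probe in a patch of marked spots on a Dex array, against 8.45% of all genes tested, and their part in those calls was not tested; outside the patches 33 were higher and 32 lower. Of the 60 lower, 40 were below background on both VSG22 arrays and so were tested only through another group, and the median difference of the 60 from EtoH was -0.18. With the filter on VSG22 or EtoH alone 17 genes were called, and with no filter 5. Hp was at 2.77 and 2.56 in VSG22 and 1.38 and 1.41 in Dex, a difference of 1.27 (95% interval 1.02 to 1.52, limma adjusted p 0.0131). Against FF its difference was 0.34 (0.10 to 0.59) and against VSGC12 -0.05 (-0.30 to 0.19), neither called. Serpina3g was at 0.14 and -0.11 in VSG22 and -1.66 and -1.52 in Dex, a difference of 1.61 (1.22 to 1.99, adjusted p 0.0171). Mx1 differed from Dex by -0.86 (adjusted p 0.0482), Ifit2 by -0.88 (0.0422), Rsad2 by -0.67 (0.0499), Il10 by -0.60 (0.0434) and Fanci by 0.78 (0.0393), whereas Fkbp5 differed by 0.53 (0.22 to 0.85) and was not called (0.134). Cep295, a centriole gene, was 1.64 higher and Gm4880 and Asb11 were 1.90 and 1.67 lower in VSG22 than in Dex, and none of the 3 was called against EtoH; the probe of Gm4880 lay in a patch on a Dex array. The count of 95 was 0 without VSG22 replicate 1, 8 without VSG22 replicate 2, 1237 without Dex replicate 1, 225 without Dex replicate 2, 35 without either EtoH array, 42 without either VSGC12 array and 39 without either FF array.

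**Figure D5:**
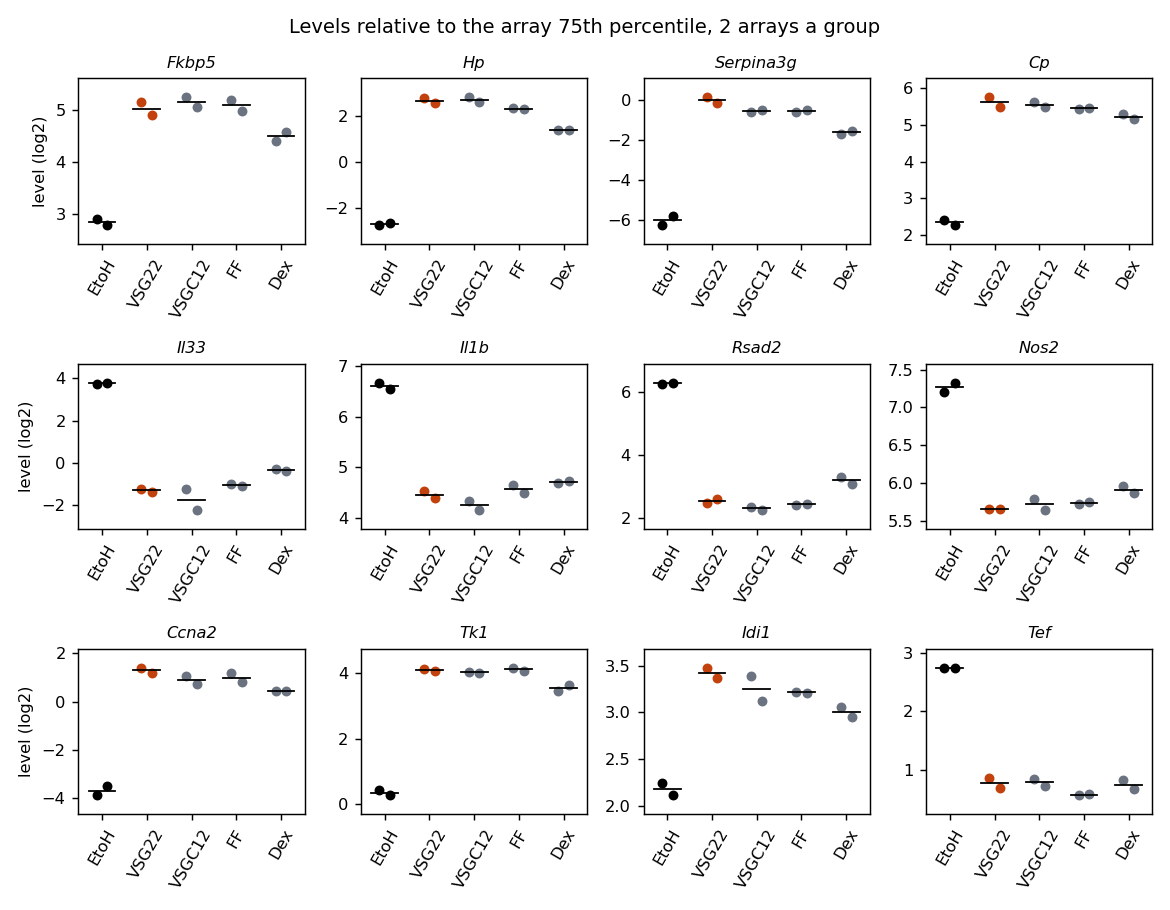
Levels of 12 genes in the 5 groups (y axis, log2 relative to the array 75th percentile; each panel has its own scale). Dots are the 2 arrays of a group, VSG22 in orange and EtoH in black, and lines the group means; in each panel the EtoH arrays lie apart from the 8 glucocorticoid arrays.

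Against the mean of Dex, FF and VSGC12 a single gene of 18028 was called (0.00555%; 2188 at an unadjusted p under 0.05). It was a probe for an intergenic noncoding RNA listed on mm9 at chr10:118385588-118439338 on the reverse strand, with no current symbol, and the probe lies at chr10:118415496-118415555. It was well above background on both VSG22 arrays, on 1 Dex array and on 0 of the other 6 arrays. Its level was -2.48 and -2.90 in VSG22, -5.75 and -5.58 in EtoH, -6.00 and -5.51 in VSGC12, -5.91 and -6.32 in FF and -5.51 and -5.95 in Dex. The probe passed the filter only through VSG22, the group where it is high. That the 2 VSG22 arrays stood above all 8 others is therefore no support for the call. With the other groups near or below background the size of the difference has no exact value; the fit gave a limma adjusted p of 0.0252 against the mean of the other 3, and VSG22 was at least 2.19-fold above EtoH. The call was lost with normexp (adjusted p 0.369), the replicate block (0.151), the trended robust fit (0.3) and no filter on dim probes (0.117), and without any 1 of the EtoH, VSG22, VSGC12 or FF arrays (adjusted p 0.073 to 0.155).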

How the data were processed

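The 10 single-colour (Cy3) Agilent arrays comprised 2 per group. Per the file headers, the deposited values are spot intensities that Agilent Feature Extraction 10.7.3.1 corrected for background and spatial trend within each array; the submitters' processing notes also list limma, without naming its step. Control spots and spots marked as outliers were left out, and the processed intensity was put on the log2 scale and set relative to each array's 75th percentile. Spots of a probe were averaged. A gene was tested from its brightest probe among those that exceeded background clearly on both arrays of 1 group or more. Probe names were updated through a RefSeq gene table, and those with no match kept the name in the file.

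Differences were tested in R 4.3.3 with limma 3.58.1 (lmFit and eBayes) on all 10 arrays with group as the only term, and adjusted over all genes by the Benjamini-Hochberg method at 0.05. The number of arrays limits the precision. The fit was also run on simulated data with independent noise and no slide effect or patches, so that run does not bear on those features. The replicate number equals the slide, and deviations from the group means correlated between same-numbered arrays at 0.014 for EtoH and VSG22. Over all pairs of groups the values were -0.045 to 0.317, with 0.267 to 0.317 among VSGC12, FF and Dex, which enter the spread. Since not every pair was above 0.1, the numbers were not taken as pairs. The main fit thus has no slide term, and with a replicate block 5921 genes were called against EtoH. Alternatives were the array median, a percentile over detected probes, quantile normalization, normexp, no filter, another filter, probe means, kept outlier spots, a replicate block, other sets of arrays, a trended robust fit and each array left out in turn.

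Named genes were the 12 highest and 12 lowest among called genes with a symbol, well above background on all 4 arrays and not overlapping, the 4 highest and 4 lowest bounds, the 4 largest called members of each list, the 2 highest and 2 lowest of each pair and a set of known glucocorticoid and LPS genes; members that go against their list were added. The comparison, lists and tests were chosen with earlier results of these data known. Promoter windows came from RefSeq (GRCm38.p6), and probe positions are those of the files (mm9). Some genes of the lists are counted but not reported here by name.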

Additional observations from a re-analysis of the deposited data

How the results depend on the processing

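The count of 5448 genes called against EtoH was 1789 with array medians, 2574 with no filter on dim probes, 1307 with a 2-fold minimum as well and 2756 to 5983 with 1 array left out; with the replicate block it was 5921. The single call against the mean of the other 3 became 56 with array medians, 6 with quantile normalization, 3 without both Dex arrays, 0 with normexp, 0 with no filter, 0 with the replicate block, 0 with the trended robust fit and 0 to 498 with 1 array left out. The 95 calls against Dex became 239 with array medians, 153 with quantile normalization, 5 with no filter, 17 with a filter on VSG22 or EtoH alone, 148 with the replicate block, 222 with the trended robust fit, 61 with a 2-fold minimum and 0 to 1237 with 1 array left out. The 0 calls against FF became 33 with array medians, 1 with quantile normalization, 1 with a filter on VSG22 or EtoH alone, 12 without both Dex arrays and 0 to 12 with 1 array left out. The 0 calls against VSGC12 became 11 with array medians, 1 with quantile normalization, 1 without both Dex arrays, 1 with the trended robust fit and 0 to 1 with 1 array left out. The cause was not tested.

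Of the 146 named genes called against EtoH, 39 lost their call in at least 1 of 23 settings and 0 changed sign. Signs turned for 7 of the 10 that were not called. Tsc22d3 was -0.0089 with the percentile over detected probes, -0.011 with quantile normalization, -0.011 with normexp and -0.037 to 0.094 with 1 array left out. Dusp1 was 0.094 with array medians and -0.11 to 0.023 with 1 array left out, and Zbtb16 -0.0020 with the percentile over detected probes, -0.073 with normexp and -0.37 to 0.44 with 1 array left out. Nr3c1 was 0.015 with array medians, Gapdh -0.11 with probe means and -0.045 to 0.13 with 1 array left out, Actb 0.079 with array medians and -0.22 to 0.10 with 1 array left out, and Gm4880 -0.032 to 0.64 with 1 array left out. Signal near background limits the dim genes; bounds are given where both arrays of a group were below it.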

Other observations

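Several gene families outside the lists above, picked after their values were seen and so given with no test of the family, also differed between VSG22 and EtoH. Of 7 stefin and cystatin A genes, inhibitors of cysteine proteases, 6 were called higher, with a median of 2.46 (log2), among them Stfa2l1 (2.68), Csta2 (2.67) and Csta3 (2.59). They are near-identical copies whose probes may share signal, so single members are uncertain. Il1rl1, the receptor for interleukin-33, went from 0.94 and 0.81 in EtoH to 2.60 and 2.51 in VSG22, a rise of 1.68, while its ligand Il33 fell. Il18rap, a subunit of the interleukin-18 receptor, rose by 1.87. Il1rl1 and Il18rap were the 2 called of 4 genes measured in the interleukin-1 and interleukin-18 receptor family (50%, against 30.2% of all genes tested). Il1rap, at 0.96, and Sigirr, at -0.17, were not called. Of 6 vascular growth factors 5 were called lower, with Angpt2 at -2.26, Vegfc at -1.66, Pgf at -1.61, Vegfa at -0.50 and Vegfb at -0.47, and 3 members were called lower under array-median scaling.

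Histone genes moved both ways, with 18 of 46 called higher and 13 lower (67.4% called, against 30.2% of all genes tested). H2ac18 went from 5.44 and 5.34 to 2.50 and 2.60, and H1f2 and H3c15 differed by -2.72 and -2.55, whereas H1f5 was higher by 2.58 and H2ac11 by 1.72. The 18 were 10 without EtoH replicate 2 or without VSG22 replicate 1, and with array medians 11 were higher and 7 lower. Histone genes are also near-identical copies. Of 2077 probes for intergenic noncoding RNAs 122 were called higher and 263 lower (18.5%, against 30.2% of all genes tested). Those 263 were 125 without EtoH replicate 1, 149 without EtoH replicate 2, 108 without VSG22 replicate 1, 138 without VSG22 replicate 2 and 75 under array-median scaling, and the 122 were 76 without EtoH replicate 2, 68 without VSG22 replicate 1 and 74 without VSG22 replicate 2.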
